A study of Homo sapiens with 6 samples.

Results

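The genes of the plasminogen activation system considered here are PLAT, PLAU, PLAUR, SERPINE2 and SERPINB2. They were chosen by name, with earlier results of the same comparison known, and all 5 had a row among the 16953 genes of the authors' deposited table. The series sequenced RNA of H1048, a wild-type line of small cell lung cancer, in 6 samples. Of these, 3 received 10 µM ISP-I (isovalerylspiramycin I, a component of a macrolide antibiotic) and 3 received DMSO, for 48 h in both cases. The authors' table compares libraries D, E and F (the DEF set) with libraries A, B and C (the ABC set), and the sources used here do not tie these letters to the treatments. Every difference below is therefore given for the DEF set over the ABC set, and no treatment is assigned to either. Depth, expression levels and the spread between replicates are not given, because values per library were not used.

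Plasminogen circulates as an inactive precursor and is cut to the protease plasmin by either of its activators. The tissue-type activator, encoded by PLAT, works mainly on fibrin, whereas urokinase, encoded by PLAU, works mainly at the cell surface, bound to its receptor PLAUR. Serpins stop the activators by forming covalent complexes with them, which cells take up through receptors of the lipoprotein receptor family. Urokinase and its receptor are best known in tumours for matrix breakdown and cell migration.

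The 5 genes did not change in one direction. At an adjusted p under 0.05, PLAT was higher and PLAUR was lower in the DEF set, while PLAU, SERPINE2 and SERPINB2 did not pass. A count of 2 of 5 stands beside 57.6% of all 15976 genes with an adjusted p, of which 29.7% were higher and 27.9% lower. Because the genes were chosen with this comparison known, these values are a description and carry no test of the group.

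The promoters of PLAUR and SERPINB2 are shown because each holds a match to the AP-1 motif, and that of PLAU because it holds none. The 3 sequences are the 250 bases before a RefSeq transcript start (GRCh38.p14), on the gene's strand, in lower case with motif matches in capitals. They lie at chr19:43670170-43670419 on the minus strand (PLAUR), chr18:63887455-63887704 on the plus strand (SERPINB2) and chr10:73910882-73911131 on the plus strand (PLAU, the downstream one of its starts in the table).
PLAUR: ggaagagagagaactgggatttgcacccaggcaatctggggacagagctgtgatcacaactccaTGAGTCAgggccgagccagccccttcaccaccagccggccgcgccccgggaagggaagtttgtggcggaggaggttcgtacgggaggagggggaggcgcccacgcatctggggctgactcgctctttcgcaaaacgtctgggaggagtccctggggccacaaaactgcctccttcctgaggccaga
SERPINB2: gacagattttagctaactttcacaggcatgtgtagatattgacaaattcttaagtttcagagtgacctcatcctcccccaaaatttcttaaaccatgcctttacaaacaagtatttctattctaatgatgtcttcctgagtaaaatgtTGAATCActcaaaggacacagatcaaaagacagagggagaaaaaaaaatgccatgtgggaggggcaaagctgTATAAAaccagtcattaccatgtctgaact
PLAU: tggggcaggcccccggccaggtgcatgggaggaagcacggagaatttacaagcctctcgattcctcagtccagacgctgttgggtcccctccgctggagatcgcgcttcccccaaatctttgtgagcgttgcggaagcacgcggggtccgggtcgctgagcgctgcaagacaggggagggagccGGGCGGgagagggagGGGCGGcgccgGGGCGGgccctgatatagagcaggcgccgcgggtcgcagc
The motifs searched, on both strands, were TGANTCA (AP-1), GGGCGG (the GC box bound by SP1), CCGGAAG (ETS) and, for the TATA box, the letters TATAAA. PLAUR held 1 AP-1 match, TGAGTCA, beginning 186 bases before the start. SERPINB2 held 1 AP-1 match, TGAATCA, beginning 102 bases before its start, and a TATA box beginning 30 bases before it. PLAU held 3 GC boxes, at 66, 51 and 40 bases before its start. No match overlapped another. Among 35116 RefSeq promoter windows of this length, 6.57% held the AP-1 motif, 42.6% the GC box, 8.52% the ETS motif and 10.7% the TATA box. The windows of SERPINE2, not printed, held GC boxes only. PLAT was left out of the promoter search, so nothing is said here of its motifs. A match describes letters in this window and does not show that a factor binds there.

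PLAT encodes tissue-type plasminogen activator (ENSG00000104368.17; chromosome 8, 42175233 to 42207724, minus strand, GRCh38). In the authors' deposited table it was 2.70-fold higher in the DEF set, with a log2 fold change of 1.43 and an adjusted p of 0.0308. If the p-value comes from a Wald test, as the tool's default is, it implies a standard error of 0.599 and a 95% interval from 0.26 to 2.60 on the log2 scale. The call was therefore close to the threshold and the size of the difference imprecise. Of all genes, 13.1% had a higher log2 fold change than PLAT.

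PLAU encodes urokinase (ENSG00000122861.15; chromosome 10, 73909177 to 73917497, plus strand). Its log2 fold change in the authors' deposited table was -0.73, with an unadjusted p of 0.0368 and an adjusted p of 0.0623. The implied interval, from -1.41 to -0.04, lay below 0 before the adjustment for multiple tests. Urokinase thus had a value of opposite sign to the tissue-type activator, without passing the threshold. The gene shares 7529 bases with C10orf55 on the other strand. Without a statement on strand, reads from the pair cannot be told apart. C10orf55 had no adjusted p. Its listed log2 fold change, 0.89, was shared by 377 genes to 3 decimals, so it carries no information on that gene.

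PLAUR encodes the urokinase receptor, which is held to the membrane by a lipid anchor (ENSG00000011422.11; chromosome 19, 43646095 to 43670547, minus strand). It was 2.91-fold lower in the DEF set, with a log2 fold change of -1.54 and an adjusted p of 2.85e-10 in the authors' deposited table. Its implied interval ran from -2.00 to -1.08, so that the bound nearest to 0 still stood for more than a 2-fold difference. PLAUR had the smallest p of the 5 genes. Of all genes, 92.7% had a higher log2 fold change.

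SERPINE2 encodes protease nexin-1, a secreted inhibitor of thrombin, urokinase and the tissue-type activator (ENSG00000135919.12; chromosome 2, 223975112 to 224039319, minus strand). Its log2 fold change was 0.17, with an adjusted p of 0.398 in the authors' deposited table. Its implied interval, from -0.16 to 0.50, held no 2-fold difference in either direction. The standard error of 0.168 was near the median of 0.155 over 15966 genes, so SERPINE2 was the most precisely measured of the 5 genes.

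SERPINB2 encodes plasminogen activator inhibitor type 2, a mostly intracellular serpin known from monocytes and stressed epithelium (ENSG00000197632.8; chromosome 18, 63871692 to 63903890, plus strand). It had the largest fold change of the 5 genes and an adjusted p that did not pass. The authors' deposited table lists a log2 fold change of 3.29, a 9.78-fold difference, with an unadjusted p of 0.0580 and an adjusted p of 0.0935. The implied standard error was 1.74, larger than that of 92.6% of genes, and the interval ran from -0.11 to 6.69. Among 224 genes whose log2 fold change lay within 0.25 of that of SERPINB2, 122 (54.5%) were called. SERPINB2 shares 6717 bases with SERPINB10 on the same strand in GENCODE 29, so that reads there could be left out or split by the counting.

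**Figure D1:**
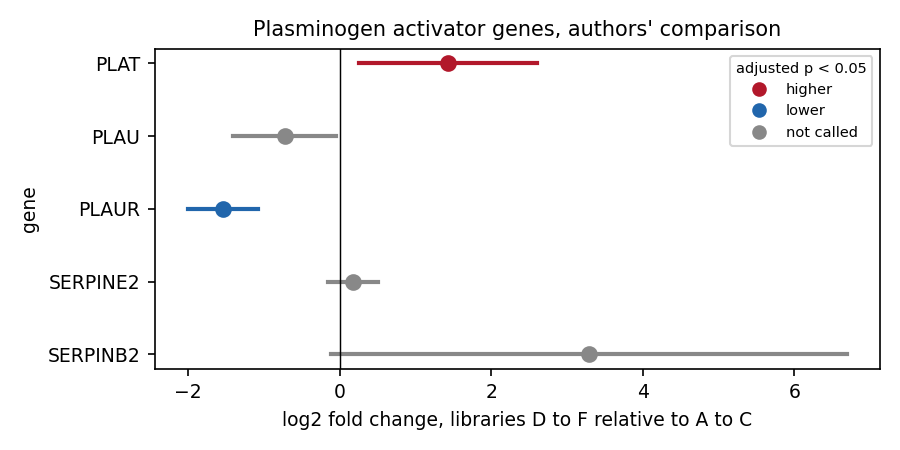
Log2 fold change of each of the 5 genes (x axis; the DEF set over the ABC set) as deposited by the authors. Points are the deposited values, bars the 95% interval that the p-value implies for a Wald test, and colour the call at an adjusted p under 0.05. PLAUR at -1.54 lies clear of 0, PLAT at 1.43 less so, and the bar of SERPINB2 runs from -0.11 to 6.69.

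Set against all genes, the log2 fold changes of the 5 genes ran from -1.54 to 3.29. Of the 5, PLAUR alone was called at an adjusted p under 0.01, beside 7944 of all 15976 genes with an adjusted p. PLAT and PLAUR were the members in the authors' smaller table. It holds the 4021 of all 16953 genes with an unadjusted p under 0.05 and at least a 2-fold difference. Differences of the size seen for PLAU were usually called elsewhere: 77.9% of 2179 genes within 0.25 of its log2 fold change passed. The same share was 73.0% around PLAT, 82.9% around PLAUR and 21.3% around SERPINE2.

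**Figure D2:**
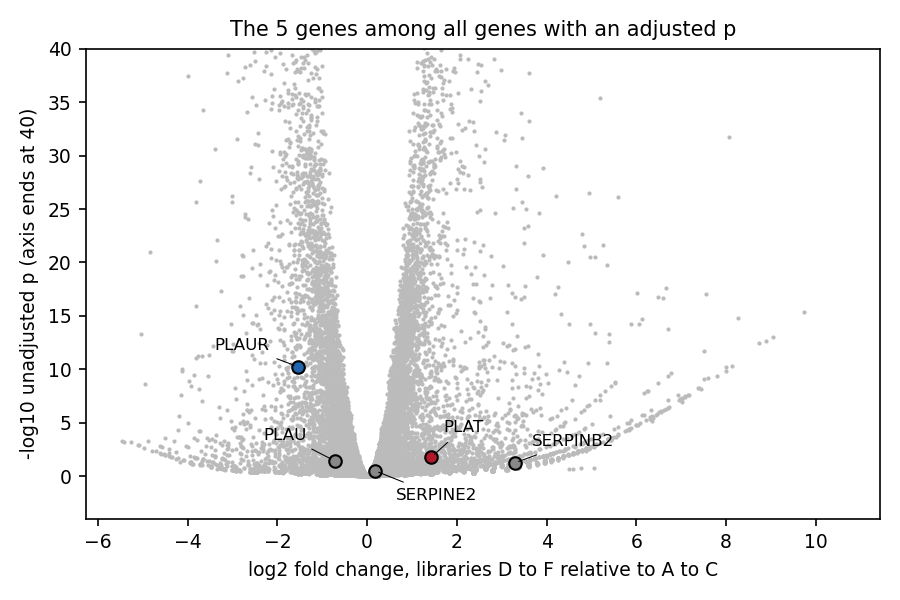
Unadjusted p (y axis, as -log10, ending at 40) against log2 fold change (x axis) for genes with an adjusted p and a p above 0, in grey, from the authors' table. The 5 genes are named, with PLAUR in blue (lower), PLAT in red (higher) and the genes that did not pass in dark grey. SERPINB2 lies far to the right at 3.29 but low on the p axis.

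The rest of the plasminogen system, related gene families and transcription factors were taken from 8 lists with 122 different genes, none of them among the 5. A value was present for 112 of them and an adjusted p for 104. Of these, 44 were higher and 26 lower in the DEF set, or 67.3%, beside 57.6% of all genes. Counts per list, subgroup and marker set below stand beside 29.7% higher and 27.9% lower over all genes. The median log2 fold change was 0.72 over the 104 genes and 0.05 over all genes with an adjusted p. Of the 20 transcription factors in these lists, 18 were called, with a median of 1.68. The pooled share and median therefore do not describe the plasminogen system alone.

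Inhibitors other than SERPINE2 and SERPINB2 were divided. Of 10 tested genes in this list, 3 were higher, 1 lower and 6 not called, with a median log2 fold change of 0.33. SERPINB8, an intracellular serpin related to SERPINB2, was 3.68-fold higher (adjusted p = 1.02e-29 in the authors' deposited table). SERPINE3, a little-studied relative of SERPINE2, had a log2 fold change of 0.96 (adjusted p = 0.0369). SERPINI1, or neuroserpin, an inhibitor of the tissue-type activator in neurons, was 2.43-fold lower (adjusted p = 0.00325). SERPINF2, the main plasmin inhibitor of blood, had no adjusted p, and its listed fold change was shared by 48 genes to 3 decimals, so it carries no information on that gene. PLG, encoding plasminogen itself, was without a value in this comparison.

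The receptor genes were divided. Over the whole list of 20 receptors and clearance receptors, 5 were higher, 11 lower and 4 not called, with a median log2 fold change of -0.62. Grouped by role, a grouping made after the values were seen, all 4 plasminogen receptors were higher, beside 29.7% of all genes. S100A10, which binds plasminogen on the cell surface in a complex with annexin A2, was 4.47-fold higher (adjusted p = 2.08e-26 in the authors' deposited table). Its partner ANXA2 was at 0.49, the enolase ENO1 at 0.50 and the membrane receptor PLGRKT at 0.57 on the log2 scale. MRC2, a collagen receptor that associates with PLAUR, was also higher (0.86).

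Clearance receptors had values of the other sign. In the lipoprotein receptor family with its chaperone and IGF2R, 7 of 8 genes were lower and none higher. Over all genes, 27.9% were lower. LRP1, which takes up activator-serpin complexes and the PLAUR bound to them, was 6.84-fold lower (log2 fold change -2.77; the authors' deposited table gives an adjusted p of 5.23e-81). VLDLR was at -1.70, SORL1 at -1.53, LRP2 at -2.37, LRPAP1 at -0.91, LRP8 at -0.50 and IGF2R at -0.48. The implied interval of LRP2 was wide, from -3.89 to -0.86. Among integrin subunits, which act beside PLAUR in adhesion, 4 of 6 were lower, namely ITGB5 (-1.53), ITGB1 (-1.16), ITGAV (-0.63) and ITGA3 (-0.60). ITGB3 (-1.16, adjusted p = 0.0520) and ITGA5 (-0.93) did not pass.

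Among proteases that can activate pro-urokinase or plasminogen, 3 of 9 tested genes were lower and 1 higher. The membrane protease matriptase, ST14, was 2.60-fold lower (adjusted p = 1.13e-53 in the authors' deposited table). PRSS8, a partner of matriptase in epithelium, was 4.44-fold lower, and the lysosomal protease CTSB 2.07-fold lower. KLKB1, encoding plasma prekallikrein, was higher, with a log2 fold change of 3.29 and an adjusted p of 0.000127. This fold change equals that of SERPINB2 to 2 decimals, at a much smaller p.

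Substrates of plasmin and urokinase were divided, 7 higher and 5 lower of 18 tested, with a median log2 fold change of 1.36. Among those higher were the matrix protein THBS1 (1.18) and IGFBP3, which binds insulin-like growth factors (1.31). Fibronectin, FN1 (-2.07), LTBP1, which holds latent TGF-beta in the matrix (-2.11), the membrane protease MMP14 (-2.23) and IGFBP5 (-2.65) were lower.

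In the thrombin system, which SERPINE2 also restrains, 4 of 12 tested genes were higher and 2 lower (median log2 fold change 0.95). Tissue factor, F3, which starts coagulation, was 2.16-fold higher, and TFPI2, a relative of its inhibitor, was 7.75-fold higher. THBD, the thrombin receptor that turns the enzyme toward anticoagulation, had a log2 fold change of 3.06 (adjusted p = 0.0184 in the authors' deposited table). F2RL1, a receptor opened by trypsin-like proteases, was at 0.92. F2R, the main thrombin receptor of many cells, was 1.70-fold lower and the anticoagulant PROS1 3.19-fold lower.

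The relatives of SERPINB2 and PLAUR did not share one direction. Of 7 tested clade B serpins, 3 were higher (SERPINB8, SERPINB1 at 1.41 and SERPINB4 at 5.37) and 1 lower (SERPINB5 at -1.46). SERPINB4 is nearly identical to SERPINB3, so its own value is uncertain. The implied interval of SERPINB4 was also wide, from 2.42 to 8.32. SERPINB2, SERPINB4, SERPINB5 and SERPINB8 all lie in a cluster of clade B genes on chromosome 18. Within 500000 bases of SERPINB2 in that cluster, SERPINB7 had a log2 fold change of -3.00 that did not pass (adjusted p = 0.164). Of 12 tested LY6/PLAUR domain genes, 6 were higher and 1 lower. LYPD1 (2.70), LY6K (2.82), LYPD6B (1.01) and CD177 (5.55) were among those higher, and CD59, an inhibitor of complement, was lower (-0.35). The implied interval of CD177 was wide, from 2.62 to 8.48, beside 0.67 to 1.35 for LYPD6B. TEX101 (2.49, interval 0.55 to 4.44) and PINLYP (1.73, interval 0.32 to 3.14) were higher as well. Both lie, like CD177, within 500000 bases of PLAUR on chromosome 19, where PLAUR itself was lower. LYPD3 and LYPD5 lie there too and were not called. Genes of other families within this distance went both ways, such as CADM4 (-1.68, lower) and PHLDB3 (1.67, higher).

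Transcription factors known to act on activator and receptor genes were mostly higher, 16 of 20, with 2 lower and a median log2 fold change of 1.68. Over all genes, 29.7% were higher. The 7 JUN and FOS family genes of the list, which encode AP-1 subunits, were all higher, from 1.85 (JUND) to 7.57 (FOS). Among them, FOSL1 was at 5.66 and JUN at 4.17. The ATF genes of the list, which can also be counted as AP-1 subunits, were left out of these 7. This smaller group was not part of the planned lists. EGR1 was at 8.56. SP1 (-0.56) and ATF2 (-0.64) were lower. PLAUR, whose promoter holds the AP-1 match printed above, was lower, and SERPINB2, which also holds one, had a positive value that did not pass. Whether these factors bear on either gene was not tested.

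**Figure D3:**
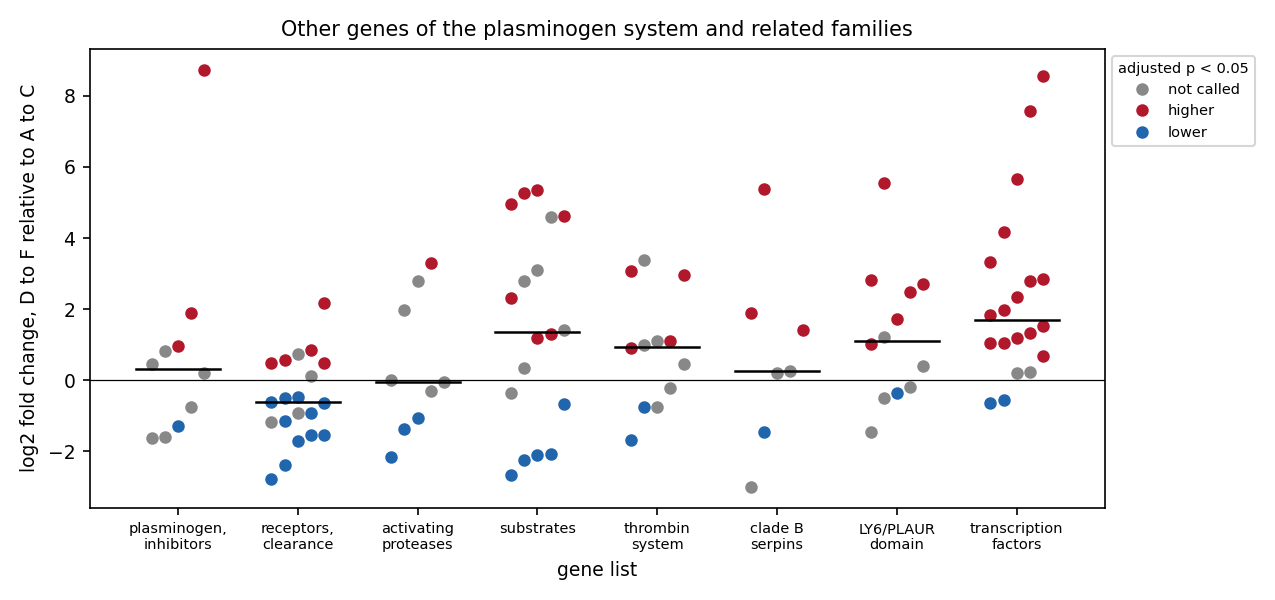
Log2 fold change (y axis; the DEF set over the ABC set, authors' table) of each gene with an adjusted p in 8 lists of the plasminogen system and related families (x axis). Red points were higher and blue points lower at an adjusted p under 0.05, grey points were not called, and black lines are list medians. The receptor list has its median below 0 at -0.62 and the transcription factors have the highest median, at 1.68.

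Markers of cells that carry these genes elsewhere were looked at in the same comparison. All 6 samples are of the line H1048, so markers of other cell types are not read here as a measure of such cells. Of 6 tested monocyte and macrophage markers, 2 were higher, LYZ (4.90) and ITGAM (5.04), while PTPRC, CD14, CSF1R and CD68 were not called. Implied intervals were wide, from 3.03 to 6.77 for LYZ and from 1.96 to 8.11 for ITGAM. Of 7 endothelial markers, ESAM was higher (0.94) and EGFL7 lower (-1.35). Of 9 fibroblast markers, 1 was higher, FAP (3.82), and 6 were lower, among them POSTN (-3.97) and PDGFRA (-1.91). The implied interval of FAP ran from 1.28 to 6.36 and that of POSTN from -5.26 to -2.69. Tuft cell markers, which this line carries, were lower in 4 of 10, including POU2F3 (-1.71), AVIL (-2.31), KIT (-1.96) and SOX9 (-1.25), and higher in 1, GFI1B (0.54). Epithelial markers were higher in 5 of 7, including KRT8 (1.24) and KRT18 (1.12), and CDH1 was lower (-1.34). Their part in the values of the 5 genes was not tested. In bulk RNA, fewer cells that express a gene and less RNA per cell cannot be told apart.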

How the data were processed

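Reads were processed for the build hg38 with tools that include STAR, HTSeq, Trimmomatic and DESeq2, per the submitters' processing notes. Whether fold changes were shrunken, the strand setting, the annotation and the versions were not given in the sources used here. Per the file headers, the deposited columns used here hold, for each gene, a log2 fold change with its p-value, unadjusted and adjusted. The name of the table gives the comparison as libraries D, E and F against A, B and C. Positive values were taken as higher in the DEF set because the table names it first. Library letters could not be matched to samples by any label, so 36 columns of values per library were not used, and the design's biological replicates enter only through the authors' p-values.

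An adjusted p of exactly 1 (977 genes) was treated as none. The other 15976 adjusted values matched a Benjamini-Hochberg adjustment over those genes within a relative tolerance of 0.001. A gene was called at an adjusted p under 0.05. Intervals (95%) and standard errors were computed from fold change and p, on the assumption of a two-sided Wald test on unshrunken or consistently shrunken values. Their arithmetic was checked on simulated data, which does not show that the assumption holds for the authors' test. The members and lists were chosen with earlier results of these data known. Named genes were the 5 members, up to 4 per list and direction with the smallest p, and a fixed set of further genes, plus genes given to complete a group after their values were seen. Some genes that this rule takes are counted but not reported here. Coordinates are those of GENCODE 29 (GRCh38), and promoters are from RefSeq (GRCh38.p14). Promoter windows were searched for 4 of the 5 genes, and PLAT, on chromosome 8, was left out of that search. Computations used scipy 1.17.1 and pandas 2.3.3 in Python 3.11.15.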

Additional observations from a re-analysis of the deposited data

How the results depend on the processing

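At an adjusted p under 0.01, 1 of the 5 genes was called, PLAUR, and PLAT no longer passed. At an adjusted p under 0.10, a setting chosen after seeing the data, 4 were called, PLAU and SERPINB2 being added. With at least a 2-fold difference required, with the median over all genes subtracted from each fold change, or with the adjustment run over all 16953 genes, the count was 2 in each case. Only the subtraction of the median, 0.06, altered the fold changes, and it changed no sign among the 5 genes. The other settings keep the fold changes as deposited. Of all 15976 genes with an adjusted p, 9195 were called at 0.05, 7944 at 0.01 and 9993 at 0.10. The count was 3856 at 2-fold or more and 3854 at 2-fold or more after centring. With the adjustment run over all 16953 genes it was 9133. The calls among the genes of the 8 lists, 70, ranged from 50 to 71. Leaving out each replicate was not run, since values per library were not used. No paired analysis was possible because no label ties the values per library to replicate numbers. Depth is unknown here, so whether the wide interval of SERPINB2 goes with few reads was not tested.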
